A study of Mus musculus with 100 samples.

Results

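Embryoid bodies at day 4 of differentiation were compared between 2 KI clones and 1 flox library, by poly(A) RNA sequencing. The 3 libraries are all the RNA tables whose titles name embryoid bodies at day 4, out of 100 samples in the study and 37 with an RNA table. Every cell of the comparison carries 2 null alleles of Mll3, so flox is not a wild type. The flox cells are Mll3-/-;Mll4flox/flox and the KI cells are Mll3-/-;Mll4KI/KI, as clones 27 and 48. The labels do not spell out what KI changes, and the title of the series speaks of the methyltransferase activities of the 2 proteins. Mouse embryonic stem cells were grown with 2 inhibitors and LIF, aggregated as hanging drops of 2000 cells in 20 µL for 2 days, and then kept in suspension in medium with 2% serum and no LIF. Sequencing libraries were made with a NEBNext kit. The flox group is 1 library of 1 line, and each KI clone is 1 library, so a clone is both the biological and the technical replicate. Both ratios share the same flox library, so agreement of the clones says nothing about the spread of flox. The titles of all 3 libraries end in "3rd", which the labels do not explain. Nothing in the labels says whether the libraries came from separate cultures or dates.

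MLL3 and MLL4, encoded by Kmt2c and Kmt2d, are large histone methyltransferases that bind enhancers and place a single methyl group on lysine 4 of histone H3. They act in a complex with UTX (Kdm6a), PTIP (Paxip1), PA1 (Pagr1a) and NCOA6, and with the core subunits WDR5, RBBP5, ASH2L and DPY30. Embryoid bodies are aggregates in which pluripotent cells leave the naive state, pass through a state like the epiblast, and form primitive streak, mesoderm, endoderm and ectoderm without the order of an embryo. BMP, WNT and Nodal signals set off streak formation in such aggregates as they do in the embryo. Kmt2d is the older Mll4, and Kmt2c the older Mll3.

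Levels are given in CPM, the counts-per-million scale over all reads assigned at gene level, and a ratio is the log2 of KI over flox after adding 0.5 CPM to each. A gene was termed higher, or lower, when the ratio reached 2-fold that way in clone 27 and in clone 48, among genes with at least 1 CPM in flox or in the mean of the clones. This is a rule of size with no test. Gene-level totals were 19.6 M reads in flox, 21.9 M in clone 27 and 22.1 M in clone 48, and the upper limit for a gene with no read, 3 reads, corresponds to 0.153, 0.137 and 0.136 CPM. These limits, and the counting intervals given below, cover counting error only.

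The labelled stage was checked against marker genes. In the flox line, the pluripotency factor Pou5f1 was at 1478 CPM in stem cells (day 0) and 555 CPM at day 4, while the streak gene T was at 27.9 and 489 CPM and the epiblast gene Fgf5 at 0.264 and 73.6 CPM. Markers of other cell types differed in level. Afp and Ttr, which define visceral endoderm, were at no more than 0.183 CPM in any of the 3 libraries, while the list of proteins it secretes summed to 559 CPM in flox and 497 and 488 CPM in the clones, most of it Apoe (529, 481 and 471 CPM), which many cell types make. The list of its uptake and signalling genes summed to 457, 356 and 295 CPM, most of it Lrp2 (299, 322 and 259 CPM). Elf5, a trophoblast stem cell factor, had no read in flox or clone 27, against a sum of 2264 CPM in flox over the trophoblast list, described with the keratins. The embryonic globin Hbb-bh1 was at no more than 0.228 CPM, and the cardiac sarcomere list summed to 89.8, 22.2 and 21.6 CPM. Kmt2c stood at 28.8 CPM in flox and at 34.4 and 34.8 CPM in clones 27 and 48, and Kmt2d at 284, 334 and 313 CPM. RNA levels of these 2 genes do not check the genotype labels, because a null or knock-in allele can still be transcribed. None of the 10 subunit genes of the complex was higher or lower, and their median log2 ratio was 0.17.

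In total 201 of 13747 genes were higher (1.46%) and 613 were lower (4.46%) in both clones. Of the 201 higher genes, 76 passed the 1 CPM filter only through the clones, and of the 613 lower genes 159 passed only through flox, so that their direction follows in part from the filter. The median log2 ratio over all genes was -0.02 in clone 27 and -0.03 in clone 48. Large differences were mostly on the lower side: 107 genes were at least 4-fold lower and 4 at least 16-fold lower, against 26 and 0 on the higher side. The nearest genes on either side of the rule were Pecam1 (log2 ratios 1.13 and 1.00, counted) and Zfp982 (1.11 and 0.9998, not counted), and on the lower side Adra2c (-1.07 and -1.001, counted) and Kcnq3 (-0.998 and -1.34, not counted).

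**Figure D1:**
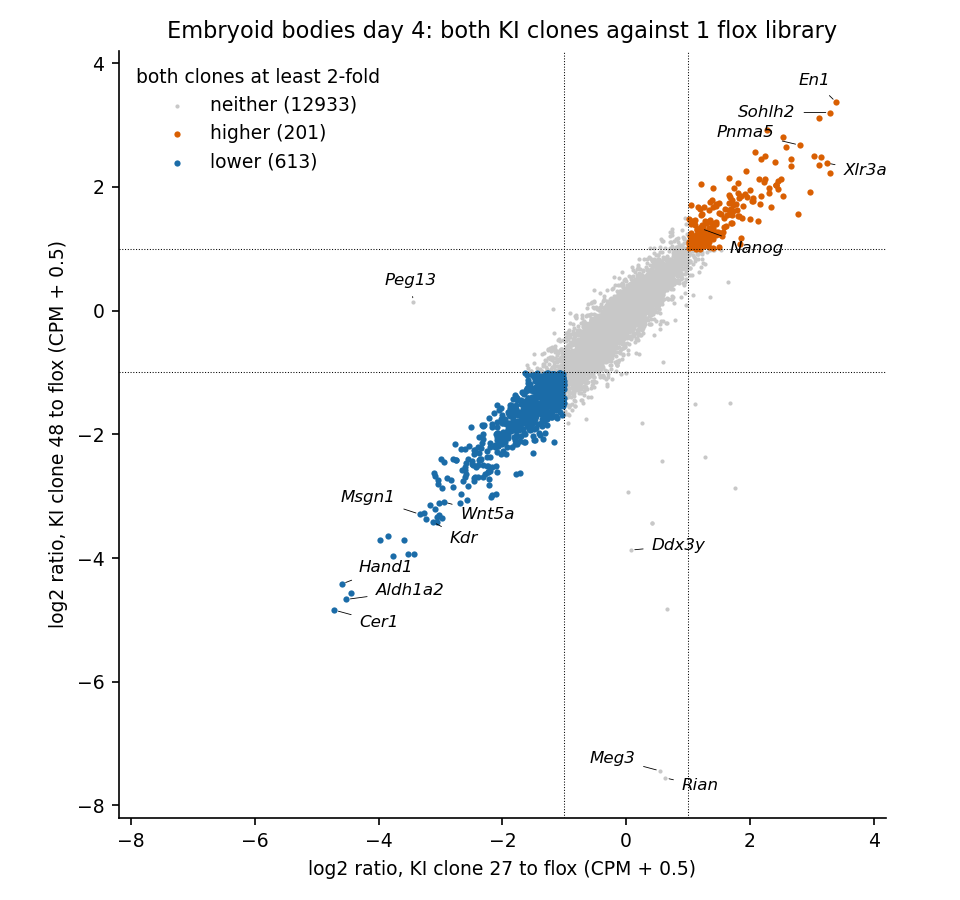
Each point is 1 of the 13747 genes, with its log2 ratio to the flox library in KI clone 27 (horizontal) and in KI clone 48 (vertical), 0.5 CPM added. The 201 higher and 613 lower genes lie along the diagonal, while Meg3, Rian and Ddx3y lie far below it and Peg13 to its left.

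The 2 clones were close to each other. Their log2 CPM values correlated across genes at r = 0.995, against 0.971 and 0.968 between flox and each clone, with genes not being independent replicates. The SD of the log2 ratio between the clones was 0.165, and 23 genes (0.167%) differed at least 2-fold between them. These 23 genes were singled out after their values were seen. Clone 27 was higher at 21 of them and clone 48 at 2. Both sets include RNAs from imprinted loci, where 1 parental allele is silent: Meg3 was at 205 CPM in flox, 300 in clone 27 and 0.679 in clone 48, and its neighbour Rian at 229, 355 and 0.724 CPM. Clone 48 was near 0 there also at day 0, with 0.799 CPM for Meg3, and at day 10, with 0.750 CPM. In clone 27 the imprinted RNA Peg13 was the one near 0, at 0.0457 CPM against 5.41 in flox and 6.02 in clone 48. A second group is Y-linked: Ddx3y was at 73.1 CPM in flox, 76.9 in clone 27 and 4.52 in clone 48, Uty at 27.01, 27.5 and 3.12, and Eif2s3y at 54.9, 65.9 and 15.2. In 3 others clone 27 was over 2-fold above flox: Kdm5d was at 8.73, 30.7 and 0.769 CPM, Zfy1 at 2.30, 6.26 and 0.0452 CPM and Zfy2 at 0.919, 2.56 and 0 CPM. Clone 48 had the lowest level of these 6 Y-linked genes at days 0 and 10 as well, for example Ddx3y at 78.1, 77.6 and 6.51 CPM at day 0. None of these imprinted or Y-linked genes counts as higher or lower in KI, since the clones do not agree. Of the 23 genes, 3 do count as higher, Xlr4a, Xlr4b and Xlr4c. Clone 27 alone against flox gave 248 higher and 728 lower genes, and clone 48 alone 242 and 845. Whether these differences between the clones move with any other gene was not tested.

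**Figure D2:**
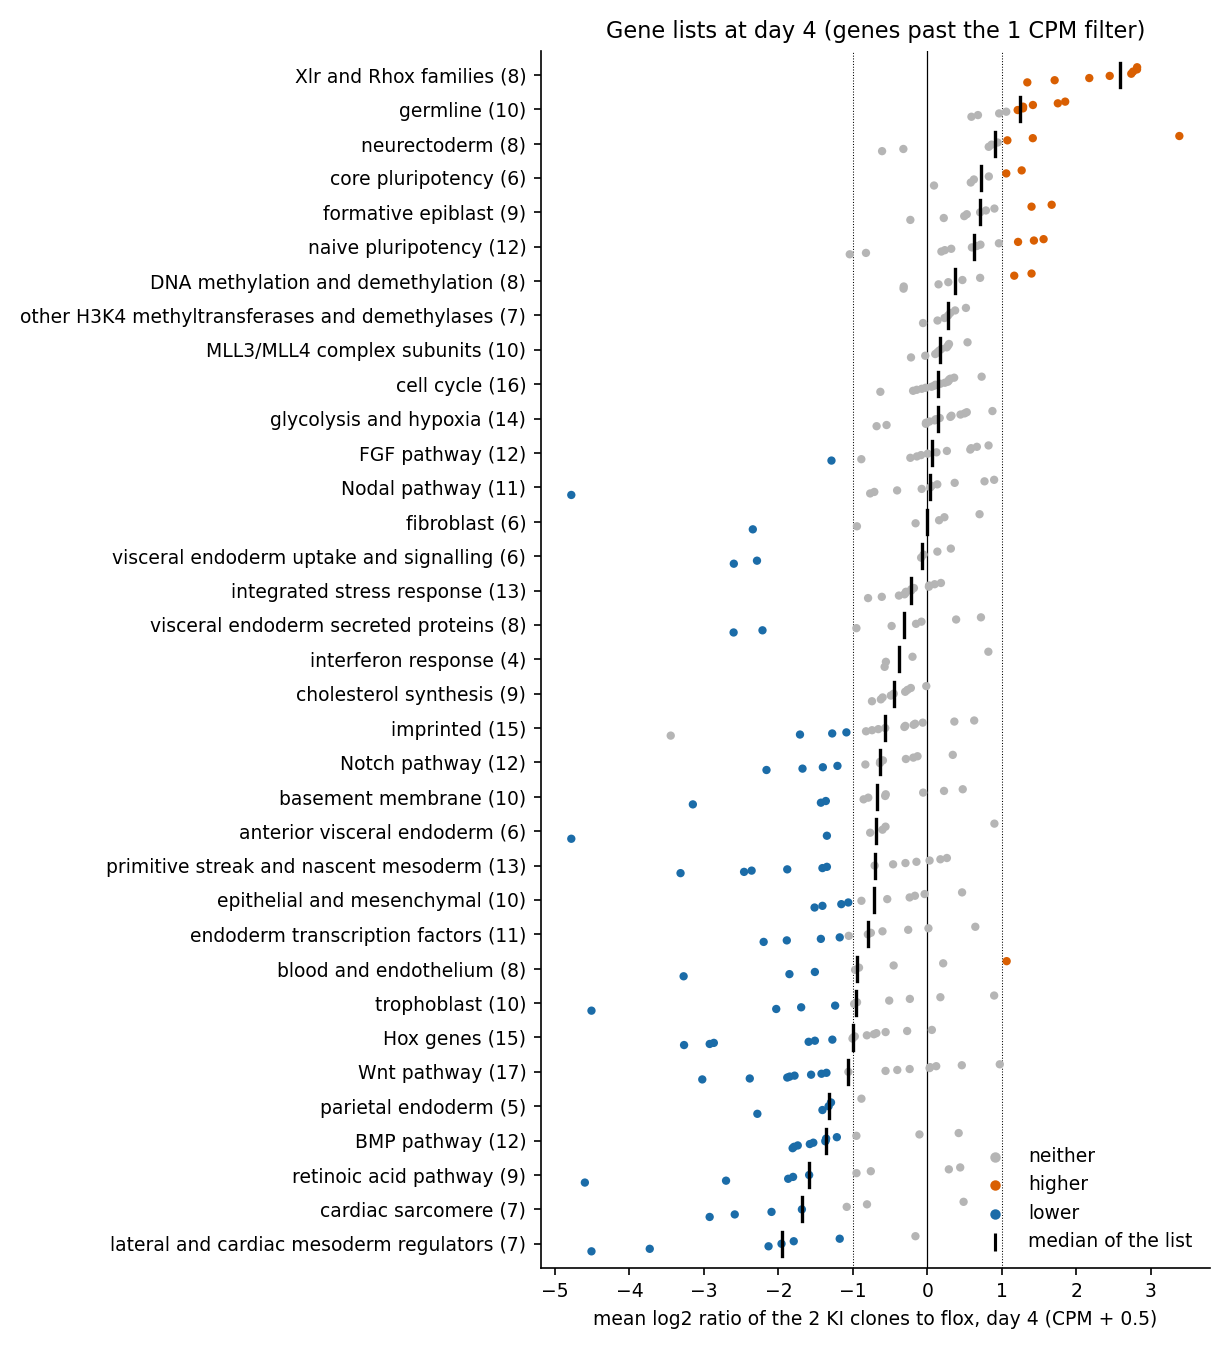
Each point is the mean log2 ratio of the 2 KI clones to flox for 1 gene past the 1 CPM filter, grouped by gene list, with the list's size in brackets, its median as a black bar and the higher and lower genes in colour. Lateral mesoderm, sarcomere, retinoic acid, BMP and parietal endoderm lists have the lowest medians.

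Part of the mesoderm genes were lower in the clones. Of 13 genes of the primitive streak and nascent mesoderm, 6 were lower and none higher, with a median log2 ratio of -0.71 against -0.03 over all genes. Some genes of the early streak and its signals were within 2-fold of flox in each clone, and the 4 given here were picked after their values were seen. Eomes, a T-box factor of the early streak, was at 290 CPM in flox and at 306 and 351 CPM in clones 27 and 48. Wnt3, the ligand that induces the streak, was at 85.1, 84.7 and 89.2 CPM, and Nodal at 102, 104 and 105 CPM. Mixl1, a homeobox gene of the streak, was at 125 CPM in flox and 87.9 and 93.9 in the clones. Other ligands known to act on the streak, Bmp4, Wnt3a and Wnt8a, were lower and are described with their pathways. T (Brachyury) was at 489 CPM in flox and 287 and 312 CPM in the clones, a mean log2 ratio of -0.71 that does not meet the rule.

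Several genes of nascent and paraxial mesoderm were lower. Mesp1, the factor of nascent cardiac and cranial mesoderm, was at 38.9 CPM in flox and at 6.67 and 7.74 CPM in the clones. Tbx6, of paraxial mesoderm, was at 21.9, 2.79 and 4.52 CPM. Msgn1, its partner in presomitic mesoderm, was at 26.1, 2.15 and 2.22 CPM. In all of them the flox library was the high one, with both clones far below it. Snai1, which represses E-cadherin as cells leave the epithelium, was at 59.0, 21.7 and 22.2 CPM. Lhx1, a factor of the anterior streak and its endoderm, was at 128, 47.4 and 52.4 CPM. In the epithelial and mesenchymal list 4 of 10 genes were lower and none higher, with a median of -0.71 and 9 of the 10 below 0. Adhesion genes differed among themselves: Cdh1 (E-cadherin) was at 511, 520 and 477 CPM, while Cdh2 (N-cadherin) was at 258, 126 and 120 CPM. The matrix gene Fn1 (fibronectin) was at 4986, 1922 and 1586 CPM.

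Of the 7 measured regulators of lateral and cardiac mesoderm 6 were lower, with a median of -1.96, and 1 of the 6, Foxf1, passed the filter only through flox. Hand1, a factor of lateral and extraembryonic mesoderm, was at 71.2 CPM in flox, 2.47 in clone 27 and 2.85 in clone 48. That is 28.9-fold lower in clone 27 (95% counting interval 22 to 38.6) and 25.0-fold lower in clone 48 (19.4 to 32.7). Foxf1, of splanchnic mesoderm, had 12.6 CPM in flox and 0.640 and 0.362 CPM in the clones. Hand2 and Tbx20, both needed for heart formation, were at 13.3, 3.11 and 2.26 CPM and at 17.6, 4.84 and 3.57 CPM. Isl1, a second heart field factor, was at 10.5, 2.83 and 2.53 CPM. Only Mef2c, at 1.33, 1.1 and 1.18 CPM, was measured and not lower, and Nkx2-5 and Tbx5 were under the 1 CPM filter. Among 7 sarcomere genes, which mark cardiac muscle, 4 were lower, 1 of which passed the filter only through flox, with the actin Actc1 at 45.5, 6.35 and 8.10 CPM and the light chain Myl7 at 20.3, 2.15 and 2.35 CPM. The heavy chain gene Myh6 stood apart from them, at 3.83 CPM in flox and 5.80 and 5.34 CPM in the clones.

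Genes of blood and vessel precursors split. Kdr, the VEGF receptor of their common progenitors, was at 218 CPM in flox and at 24.5 and 20.0 CPM in clones 27 and 48, which is 8.89-fold (8.13 to 9.75) and 10.9-fold (9.89 to 12.1) lower. Tal1, a master factor of blood, was at 3.17, 0.411 and 0.633 CPM. Etv2, which acts upstream of it, was at 9.91, 4.66 and 5.38 CPM and did not meet the rule. Pecam1, an endothelial adhesion gene that stem cells also express, was higher, at 5.31, 12.2 and 11.1 CPM. Of the 8 measured genes of the list, 3 were lower and 1 was higher, and 2 of the 3 lower genes, Tal1 and Cdh5, passed the filter only through flox. The mesenchymal receptor genes Pdgfra (110, 15.4 and 20.6 CPM) and Pdgfrb (40.3, 7.31 and 7.78 CPM) were lower as well. In bulk RNA, fewer cells of a type and less RNA per cell cannot be told apart.

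**Figure D3:**
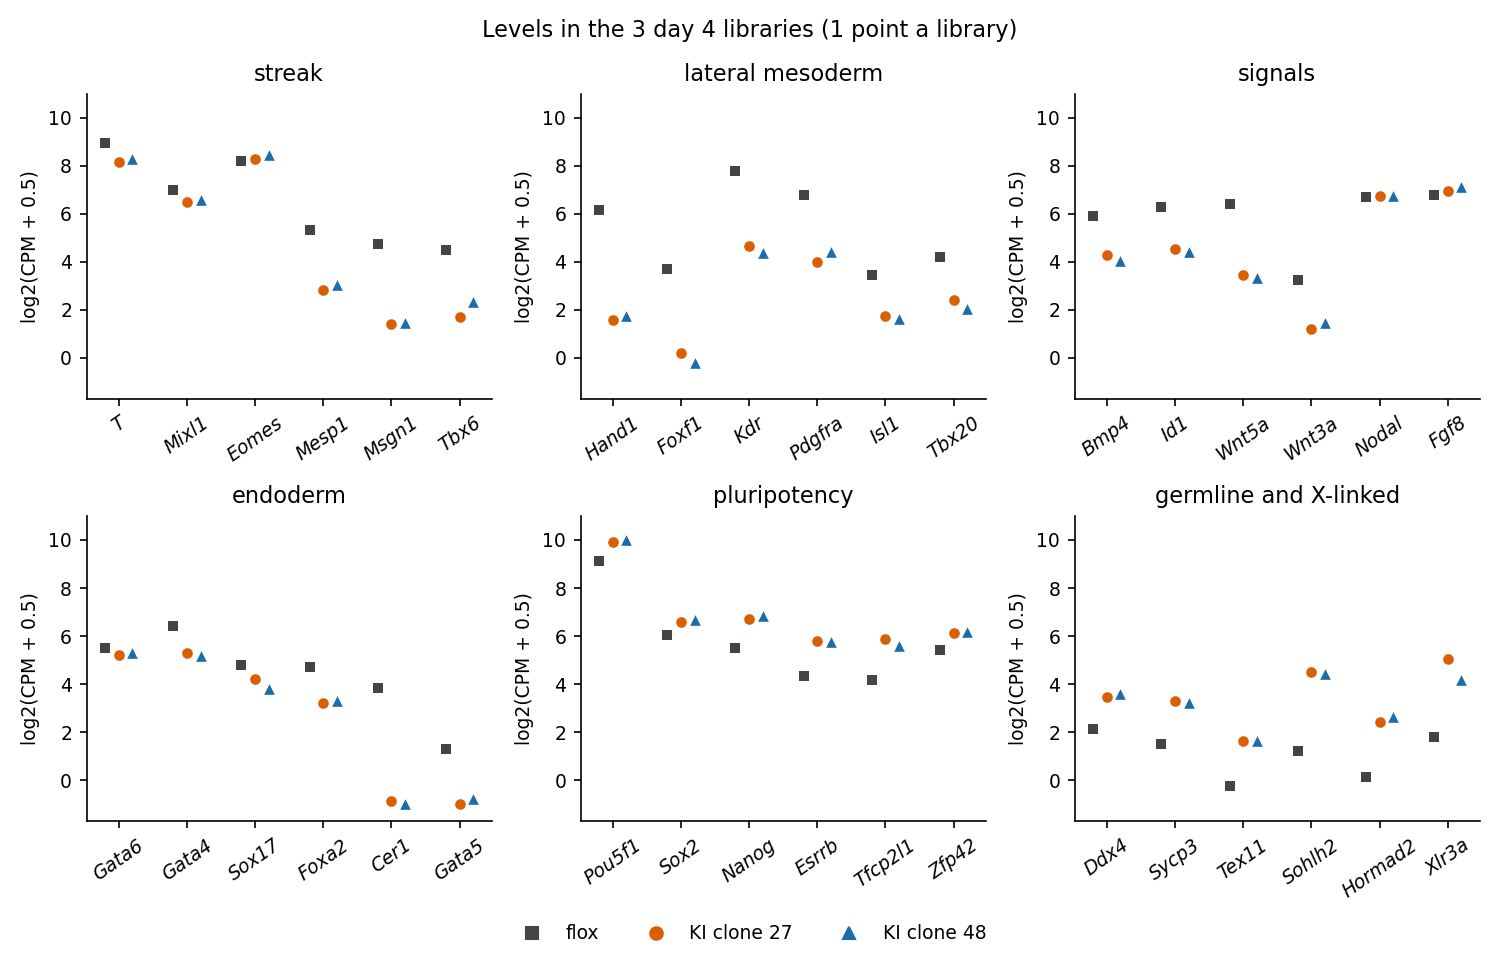
Levels in log2(CPM + 0.5) of 36 genes in the flox library (square) and KI clones 27 (circle) and 48 (triangle), 1 point a library, in 6 groups of genes. Eomes, Nodal, Fgf8 and Gata6 sit together in all 3 libraries, while Hand1, Foxf1, Cer1 and Msgn1 have both clones far below flox and Sohlh2, Tex11 and Xlr3a far above.

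Among signalling genes, the BMP list had the most lower members of all lists with 9 of 12, and a median log2 ratio of -1.37. BMP ligands bind receptors that activate SMAD1 and SMAD5, and the ID genes and SMAD6 are their usual targets. The ligand Bmp4 was at 59.1 CPM in flox and 19.1 and 15.8 CPM in the clones, and Bmp2 at 28.4, 7.40 and 8.37 CPM. Bmp7 was at 24.2, 9.14 and 9.14 CPM. All 3 ligands were high in flox alone. The target Id1 was at 76.0, 22.3 and 20.5 CPM, the inhibitory SMAD gene Smad6 at 38.2, 12.0 and 13.0 CPM and the homeobox target Msx2 at 42.7, 18 and 14.6 CPM. Id3, another target, was not lower, at 92.5, 88.6 and 83.3 CPM, and Id4 was at 2.50, 3.75 and 3.30 CPM. The secreted BMP inhibitor Nog was lower along with the ligands, at 30.1, 10.6 and 9.64 CPM.

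The promoters of Bmp4 and Smad6 are shown because this list held the most lower genes. They are the 250 bases before the start site in RefSeq (build GRCm38.p6), 5′ to 3′ on the strand of the gene, for Bmp4 at chr14:46390670-46390919 (minus strand) and for Smad6 at chr9:64022060-64022309 (minus strand). Capitals mark GGAGCC, letters of a sequence described for SMAD binding, or its complement GGCTCC.
Bmp4: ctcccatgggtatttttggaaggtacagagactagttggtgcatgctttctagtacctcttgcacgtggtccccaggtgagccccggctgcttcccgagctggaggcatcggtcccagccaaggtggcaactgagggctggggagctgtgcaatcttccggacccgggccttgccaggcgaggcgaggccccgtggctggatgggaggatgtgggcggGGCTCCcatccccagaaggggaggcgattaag
Smad6: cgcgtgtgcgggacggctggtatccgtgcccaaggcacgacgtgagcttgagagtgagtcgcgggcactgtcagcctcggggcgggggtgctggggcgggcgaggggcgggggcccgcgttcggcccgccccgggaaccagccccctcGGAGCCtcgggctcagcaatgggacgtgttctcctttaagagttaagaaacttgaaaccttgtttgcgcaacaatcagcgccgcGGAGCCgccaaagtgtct
Counted in windows from 250 bases before to 50 bases after the start, on both strands, GGAGCC was in all 8 BMP-list promoters that have an entry, against 30.5% of 27025 promoters. That included Id3, Id4 and Chrd, which were not lower, and all 5 lower genes with an entry. The related GGCGCC was in 3 of the 8, against 12.0% of all promoters. A match describes letters and is not a binding site.

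Of 17 WNT genes, 8 were lower and none higher, with a median of -1.06. The ligands differed among themselves. Wnt5a, a ligand of migrating mesoderm, was at 84.5, 10.5 and 9.46 CPM in flox and clones 27 and 48, Wnt3a at 8.83, 1.83 and 2.26 CPM and Wnt8a at 29.1, 7.45 and 8.82 CPM. Wnt3 was level, as given above, and Wnt11 was at 8.17, 11.1 and 11.9 CPM. Among the targets and feedback inhibitors of β-catenin, Nkd1 was at 41.4, 7.68 and 7.37 CPM and Notum at 8.83, 3.34 and 2.67 CPM, whereas Axin2 (94.5, 73.6 and 69.1 CPM) and Sp5 (139, 142 and 144 CPM) were not lower. Lower and level genes were thus found among ligands and among targets.

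In the Nodal list 1 of 11 genes was lower, and the median was 0.04. That gene, Cer1, passed the filter only through flox. It is a secreted inhibitor of Nodal, BMP and WNT made by the anterior visceral and definitive endoderm. It had 271 reads in flox, 1 read in clone 27 and 0 in clone 48. In CPM these are 13.8, 0.0457 and 0, a ratio of 303-fold in clone 27 with a counting interval of 53.9 to 12008, and at least 102-fold lower in clone 48 against the floor of 3 counts in that library. Other inhibitors and targets were nearer to flox, with Lefty1 at 107, 65.6 and 60.3 CPM and Lefty2 at 149, 161 and 166 CPM. In the FGF list 1 of 12 genes was lower (Fgf15, at 12.9, 4.93 and 5.07 CPM) and none higher, with a median of 0.06. The mean log2 ratios of the list ran from -1.29 to 0.82.

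Some genes of the retinoic acid pathway and some Hox genes were lower. Aldh1a2, the enzyme that makes retinoic acid in mesoderm, was at 34.1 CPM in flox and at 1.01 and 0.860 CPM in the clones, which is 33.9-fold (22.2 to 54.5) and 39.7-fold (25.2 to 66.3) lower. Cyp26a1, the enzyme that breaks it down and a target of the pathway, was at 231, 62.6 and 63.3 CPM. The binding protein gene Crabp1 was at 15.4, 1.55 and 2.40 CPM, while Crabp2 was at 9.70, 12.8 and 13.9 CPM. In all, 5 of 9 measured genes of the pathway were lower, with a median of -1.59, and 4 of the 9, 2 of them lower, passed the filter only through flox. Of 39 Hox genes only 15 passed the 1 CPM filter, 8 of them only through flox. Of the 15, 6 were lower, 3 of them among those 8, and all from the groups nearest the anterior end but Hoxd9. Hoxb1 was at 26.6, 2.65 and 3.89 CPM, Hoxb2 at 15.6, 1.46 and 1.81 CPM and Hoxb3 at 23.5, 2.01 and 1.99 CPM. In the Notch list 4 of 12 genes were lower, of which Hey2 passed the filter only through flox. The others include the ligand Dll1 (36, 6.81 and 8.64 CPM) and the receptor Notch1 (155, 47.6 and 48.6 CPM), but not Notch2 (178, 176 and 151 CPM).

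Endoderm genes were lower in part. Of 11 measured endoderm transcription factor genes 4 were lower and none higher, with a median of -0.80. Of the 4, Gata5 passed the filter only through flox and could only be lower. Gata6, which starts primitive endoderm, was level at 45.0 CPM in flox and 36.2 and 39.0 CPM in the clones. Gata4, its partner, was at 84.6, 39.2 and 35.2 CPM, and Foxa2 of definitive and visceral endoderm at 25.4, 8.86 and 9.37 CPM. Sox17 was at 27.3, 17.9 and 13.4 CPM and did not meet the rule. Gata5 was low in all libraries, with 39 reads in flox, 0 in clone 27 and 2 in clone 48. Of 10 basement membrane genes, which parietal endoderm makes in bulk, 3 were lower and none higher, with a median of -0.68. The mean log2 ratio was below 0 in 8 of the 10. The laminin gene Lama1 was at 86.0, 9.69 and 8.87 CPM, the collagen gene Col4a1 at 334, 153 and 99.8 CPM, and the laminin genes Lama5 (612, 920 and 788 CPM) and Lamc1 (304, 389 and 323 CPM) were not lower. In the parietal endoderm list 4 of 5 measured genes were lower, of which Pth1r (29.4, 5.39 and 5.93 CPM) had the lowest ratio.

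Keratins of simple epithelia stood out by their level. Krt8 was at 1268 CPM in flox and at 351 and 275 CPM in clones 27 and 48, and its partner Krt18 at 589, 203 and 163 CPM. On the deposited RPKM scale, which divides by transcript length, Krt8 had 505 in flox, above Pou5f1 with 295, whereas in the clones it had 140 and 110 against 509 and 540 for Pou5f1. The order of these 2 genes was thus the reverse in flox and KI. Both keratins sit in the trophoblast list, of which 4 of 10 measured genes were lower, yet Cdx2, a factor of trophoblast and of posterior mesoderm, was at 19.6, 8.86 and 11.2 CPM without meeting the rule, and Elf5 had 1 read in clone 48 and none elsewhere. Summed over that list, flox had 2264 CPM and the clones 896 and 829 CPM, most of it keratin.

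Most pluripotency genes had more reads in the clones than in flox, and few reached 2-fold. Of 6 core genes 2 were higher and none lower, with a median of 0.72. Pou5f1 was at 555 CPM in flox and 956 and 1012 CPM in the clones, a mean log2 ratio of 0.83. Nanog was at 45.4, 105 and 115 CPM, and Utf1 at 126, 264 and 264 CPM. In the naive list of 12 genes 3 were higher: Esrrb at 20.0, 55.9 and 53.7 CPM, Tfcp2l1 at 17.6, 58.6 and 47.6 CPM, and Tcl1 at 0.613, 2.24 and 1.95 CPM. Tcl1 and Prdm14 passed the filter only through the clones, so 2 of the 10 genes that passed in flox were higher. Against day 0 these levels are small, since Esrrb had been at 787 CPM in flox and at 619 and 672 CPM in the clones. In the formative list, of genes of the early epiblast, 2 of 9 were higher, Foxd3 (19, 64 and 59.4 CPM) and the DNA methyltransferase gene Dnmt3a (232, 618 and 608 CPM). Fgf5 was level at 73.6, 58.0 and 68.0 CPM and Otx2 was at 52.4, 94.8 and 102 CPM, short of 2-fold in clone 27 and in clone 48.

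Neurectoderm genes gave a mixed picture at low levels. Of 8 measured genes 3 were higher, and 2 of the 6 that passed the filter in flox. The other higher gene was En1, which passed only through the clones, at 0.919 CPM in flox and 14.4 and 14.2 CPM in the clones. It had the highest ratio of all genes with 0.5 CPM added, a rank that depends on the amount added. En1 and En2 are homeobox genes of the midbrain and hindbrain boundary, and En2 was at 2.35, 5.71 and 5.29 CPM. Sox1, an early neural factor, was at 1.12, 3.20 and 4.57 CPM. Neither En2 nor Sox1 met the rule when 1 CPM was added in place of 0.5 CPM. Nes, which neural progenitors and other dividing cells express, was on the other side without meeting the rule, at 382, 249 and 251 CPM.

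Of the genes with the highest ratios and at least 5 CPM in the higher group, 3 are given here. No list holds them, and they were picked for a role in germ cells. Pnma5, Naa11 and Pnma3, also in no list, had mean log2 ratios of 2.74, 2.62 and 2.50, above Hormad2 at 2.38. Sohlh2, a factor of germ cell differentiation, was at 1.84 CPM in flox and 22.5 and 21.0 CPM in the clones, 12.2-fold (8.71 to 17.7) and 11.4-fold (8.13 to 16.5) higher. Tex19.1, which restrains transposons in germ cells and placenta, was at 12.6, 68.8 and 68.4 CPM. Hormad2, of the meiotic chromosome axis, was at 0.613, 4.80 and 5.79 CPM. In the germline list 6 of 10 genes were higher and none lower. Only 4 of the 10 passed the filter in flox, of which 3 were higher. The other 6 passed through the clones alone, so they had to be above flox and their count is no support for a direction. Ddx4, the germ cell RNA helicase, was at 3.83, 10.6 and 11.5 CPM and the synaptonemal complex gene Sycp3 at 2.35, 9.32 and 8.87 CPM. Tex11 was at 0.357, 2.60 and 2.58 CPM. Summed over the list, flox had 14.1 CPM and the clones 40.7 and 42.3 CPM, so in absolute terms these genes stayed low. By length, Ddx4 had 0.966 RPKM in flox and 2.69 and 2.91 in the clones, against 295 to 540 for Pou5f1. Genes of the 2-cell state did not pass the filter, and none of the 4 matched genes was above 0.183 CPM in any of the 3 libraries.

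Sequences before the start sites of 3 higher germline genes are shown because the list's promoters have letters in common, a choice made after the values were seen. They come from RefSeq (GRCm38.p6), 250 bases each, for Ddx4 at chr13:112652311-112652560 (minus strand), Sycp3 at chr10:88459337-88459586 (plus strand) and Slc25a31 at chr3:40708621-40708870 (plus strand). Capitals mark CACGTG, known as an E-box, and TCCCGC or its complement GCGGGA, letters of an E2F-type site. In the bases shown for Slc25a31 only CACGTG occurs.
Ddx4: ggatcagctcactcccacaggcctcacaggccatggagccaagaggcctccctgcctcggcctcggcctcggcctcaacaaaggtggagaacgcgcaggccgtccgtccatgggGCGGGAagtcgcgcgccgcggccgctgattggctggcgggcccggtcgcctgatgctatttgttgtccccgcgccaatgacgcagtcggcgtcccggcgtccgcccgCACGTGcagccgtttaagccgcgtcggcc
Sycp3: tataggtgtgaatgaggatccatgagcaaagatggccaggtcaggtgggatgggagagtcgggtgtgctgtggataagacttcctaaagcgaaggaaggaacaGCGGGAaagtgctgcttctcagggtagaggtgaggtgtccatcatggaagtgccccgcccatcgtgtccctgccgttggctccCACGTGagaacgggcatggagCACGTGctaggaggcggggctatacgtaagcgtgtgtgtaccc
Slc25a31: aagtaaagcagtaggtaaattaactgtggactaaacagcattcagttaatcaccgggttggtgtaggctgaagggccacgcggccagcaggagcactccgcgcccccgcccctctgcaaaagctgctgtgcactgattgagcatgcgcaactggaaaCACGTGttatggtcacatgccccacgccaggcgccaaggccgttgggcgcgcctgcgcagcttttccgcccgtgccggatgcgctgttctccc
In the longer windows that run on to 50 bases after the start, CACGTG on either strand was in 8 of the 9 germline promoters with an entry, against 7.24% of 27025 promoters, and TCCCGC was in 6 of the 9, against 20.0%. Both were in 6 of the 9, against 2.05% of all. Members that were not higher, Mael, Hormad1 and Stk31, held CACGTG as well, so within the list it did not separate higher genes from the others. Dazl held neither in this window. Slc25a31 itself was at 0.153 CPM in flox and 1.14 and 1.04 CPM in clones 27 and 48, from 3 reads in flox, with fold intervals of 2.27 to 38.6 and 2.05 to 35.3.

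Of the 11 matched genes of the X-linked Xlr and Rhox families 8 passed the filter, and these 8 were higher. Only Xlr3a, Xlr3b and Xlr3c passed it in flox. Xlr4a, Xlr4b, Xlr4c, Rhox6 and Rhox9 passed through the clones alone, which fixes their direction. The 3 genes that did not pass, Xlr5a, Xlr5b and Xlr5c, had 1, 1 and 2 reads in flox, 10, 7 and 4 in clone 27 and 3, 2 and 1 in clone 48. Xlr3a was at 2.96 CPM in flox, 32.3 in clone 27 and 17.6 in clone 48, and Xlr3b and Xlr3c were alike at 3.63, 35.2 and 20.7 CPM and at 1.84, 20.3 and 12.5 CPM. These copies are nearly identical, so reads may have been split or shared among them, and the 3 values are not independent. Rhox9, a reproductive homeobox gene, had no read in flox and 1.23 and 1.04 CPM in the clones, at least 8.05-fold and at least 6.79-fold higher against the flox floor of 3 counts. Pnma5 and Pnma3, X-linked genes of retroviral origin, were at 9.5, 69.4 and 63.3 CPM and at 1.84, 14.3 and 11.4 CPM. In Xlr3a, Xlr3b and Xlr3c clone 27 was above clone 48 and both were above flox. Among DNA methylation genes, Tet1 was higher (114, 262 and 252 CPM) together with Dnmt3a, while Dnmt1 was at 364, 442 and 443 CPM and Uhrf1 at 402, 440 and 451 CPM.

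Several lists held no gene that was higher or lower. Beside the complex subunits and the 2-cell genes given above, these were the 7 measured genes of other H3K4 methyltransferases and demethylases (median log2 ratio 0.28), the cell cycle list of 16 genes (median 0.14), the 14 genes of glycolysis and hypoxia (0.14), the 13 genes of the integrated stress response (-0.22), the 9 measured genes of cholesterol synthesis (-0.45, with all 9 below 0) and the 4 measured interferon genes (-0.38). Mki67, a proliferation gene, was at 597, 583 and 550 CPM. Among 15 imprinted genes Igf2 (217, 85.3 and 50.9 CPM), Mest (325, 154 and 152 CPM) and Phlda2 (129, 54.2 and 51.8 CPM) were lower. Over all 36 lists, 26 of the 383 matched genes were higher and 75 lower, and some of the 383 did not pass the filter. Of all genes past it, 1.46% were higher and 4.46% lower. The lists were chosen with earlier results of these data known, so these counts are no test. The fibroblast list, with markers that could point to feeder cells, had 1 of 6 genes lower (Pdgfrb), and its summed level was 125 CPM in flox and 91.3 and 64.7 CPM in the clones.

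The same clones and line were also sequenced at days 0 and 10 in other libraries, again with 1 flox library a day. In stem cells 655 of 12787 genes were higher (5.12%) and 323 lower (2.53%), and at day 10 509 of 14470 were higher (3.52%) and 571 lower (3.95%). The clones were further apart at day 10, where 662 genes differed at least 2-fold between them. Of the 201 genes higher at day 4, 169 were measured at day 0, and 82 of these (48.5%) were higher there too and 2 lower. For the 613 lower genes the picture at day 0 was another: 263 were measured, of which 38 (14.4%) were lower and 36 (13.7%) higher. In stem cells, 5 Xlr and Rhox genes and 7 germline genes passed the filter in flox, of which 5 and 4 were higher, with Sohlh2 at 10.0 CPM in flox and 133 and 110 CPM in the clones. The mesoderm genes were barely expressed in stem cells, with Hand1 at no more than 0.297 CPM and Mesp1 at no more than 0.0849 CPM in the 3 libraries.

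By day 10 some regulators that were lower at day 4 were within 2-fold of flox. Hand1 was at 108 CPM in flox and 193 and 140 CPM in the clones, Kdr at 237, 179 and 172 CPM, Pdgfra at 185, 175 and 190 CPM and Bmp4 at 90.1, 115 and 70.3 CPM. Sarcomere genes were not, since all 7 were lower at day 10 with a median of -3.17, for example Actc1 at 420, 42.1 and 28.4 CPM and Myh6 at 1004, 119 and 76.9 CPM. Aldh1a2 (38.8, 7.11 and 7.54 CPM) and Hoxb3 (35.1, 11.6 and 11.4 CPM) were also lower on both days. Endoderm genes went the other way: of 11 measured endoderm factors 7 were higher and 1 lower at day 10, with Foxa2 at 7.49, 37.9 and 34.3 CPM. The exception was Gata5, at 44.7, 2.97 and 3.33 CPM. Of the 613 genes lower at day 4, 549 were measured at day 10, and 96 (17.5%) were lower and 42 (7.65%) higher there. Of the 201 higher genes 119 were measured, with 23 (19.3%) higher and 10 (8.40%) lower. The difference between days was not tested.

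**Figure D4:**
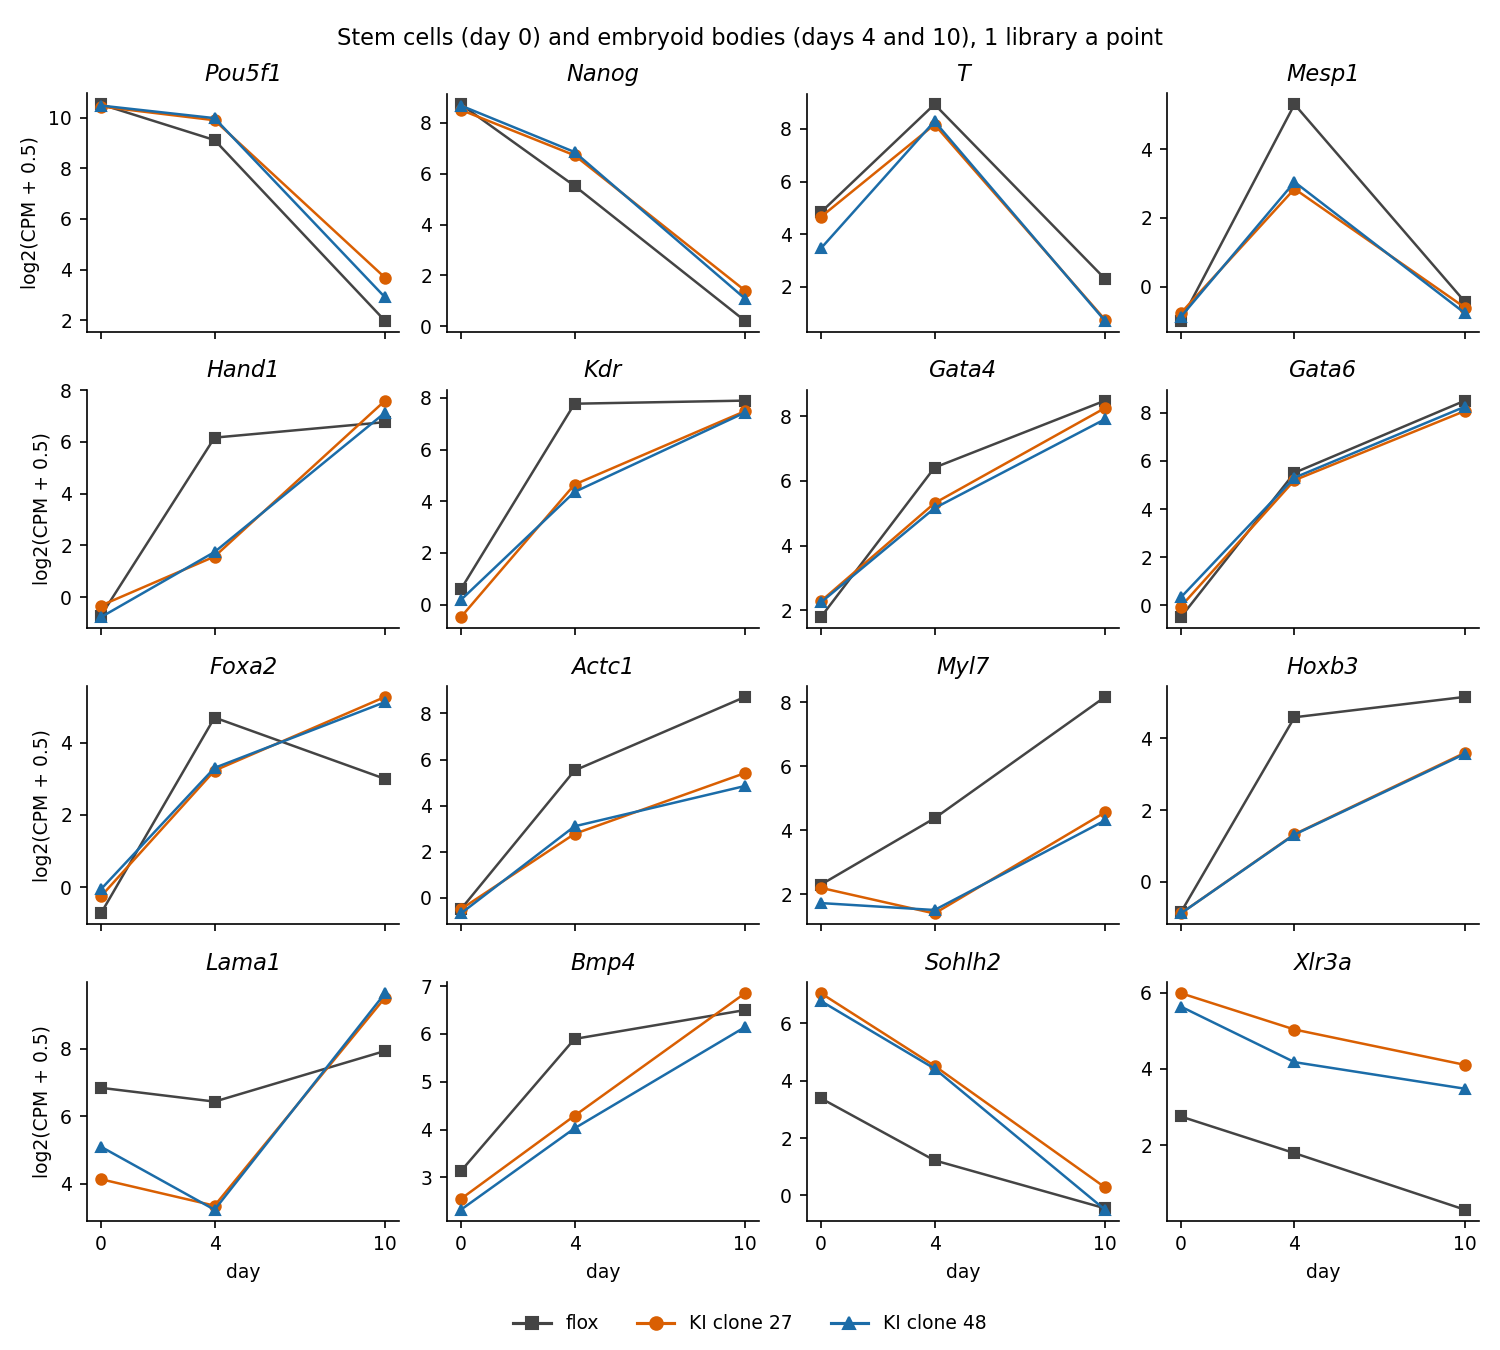
Levels in log2(CPM + 0.5) of 16 genes at days 0, 4 and 10 in the flox line (square), KI clone 27 (circle) and KI clone 48 (triangle), 1 library a point, each panel with its own axis. Hand1, Kdr and Bmp4 of the clones are below flox at day 4 and near it at day 10, Actc1 and Myl7 stay below, Foxa2 and Lama1 cross, and Xlr3a stays above on all 3 days.

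Cultures of the same genotypes under other protocols had 2 libraries per group and could be tested with edgeR (quasi-likelihood test, adjusted p under 0.05). Their KI libraries came from the same 2 clones, so they are other libraries but not other KI clones. Up to day 4 the neural protocol follows that of the embryoid bodies. In extraembryonic endoderm cultures at day 5, 2811 of 15532 genes were higher in KI (18.1%) and 2709 lower (17.4%). In neural cultures at day 8, 1036 of 16439 were higher (6.3%) and 2166 lower (13.2%). The spread in these fits was not taken from the compared libraries alone. Trophectoderm libraries were fitted with extraembryonic endoderm, and neural libraries of a later day with the neural cultures. Of the 201 genes higher in embryoid bodies at day 4, 109 of 195 tested (55.9%) were higher in extraembryonic endoderm and 52 of 165 (31.5%) in neural cultures, while 12 (6.15%) and 28 (17.0%) were lower there. Of the 613 lower genes, 211 of 583 (36.2%) were lower in extraembryonic endoderm and 286 of 587 (48.7%) in neural cultures, while 98 (16.8%) and 54 (9.20%) were higher. In neural cultures the opposite direction was thus also above its share of all genes for both sets. Leaving out 1 library moved the neural counts to between 455 and 671 higher genes and between 1440 and 1730 lower ones, with the fewest higher genes without either flox library (470 and 455). A fit of only the 4 neural libraries gave 1803 higher genes (11.6%) and 2553 lower (16.4%). In extraembryonic endoderm the higher genes were 1827 and 1847 without either flox library. The shares in the same direction were above those of all genes in each of these fits. The share of the lower genes that were higher was not above in the 4 neural libraries (11.2%), and in extraembryonic endoderm it was above or below by setting. Counted from the other side, these shared genes were 7.79% of the lower genes of extraembryonic endoderm and 13.2% of those of neural cultures. In the neural cultures Kdr had a log2 fold change of -2.78 ± 0.26 (SE, edgeR adjusted p = 0.0001), Foxf1 of -3.35 ± 0.23 (edgeR adjusted p = 1e-06) and Aldh1a2 of -3.64 ± 0.13 (edgeR adjusted p = 3.3e-08). The direction of Aldh1a2 was opposite in extraembryonic endoderm, at 1.31 ± 0.26 (edgeR adjusted p = 0.0012). Of 12 BMP genes 7 were higher there and 1 lower, and of 38 tested Hox genes 24 were higher and none lower. In neural cultures 15 of 31 Hox genes were higher and 4 lower, while 2 of 12 BMP genes were higher and 4 lower. All 11 tested endoderm transcription factors were lower in extraembryonic endoderm, and 7 of 11 in neural cultures, where 2 were higher. Gata4 was lower in both, by -3.44 ± 0.15 and -2.51 ± 0.17 (edgeR adjusted p = 1.9e-08 and 1.1e-06). Sohlh2 was higher in extraembryonic endoderm, by 3.27 ± 0.11 (edgeR adjusted p = 8.6e-11), and not in neural cultures, at -0.33 ± 0.40 (edgeR adjusted p = 0.67).

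**Figure D5:**
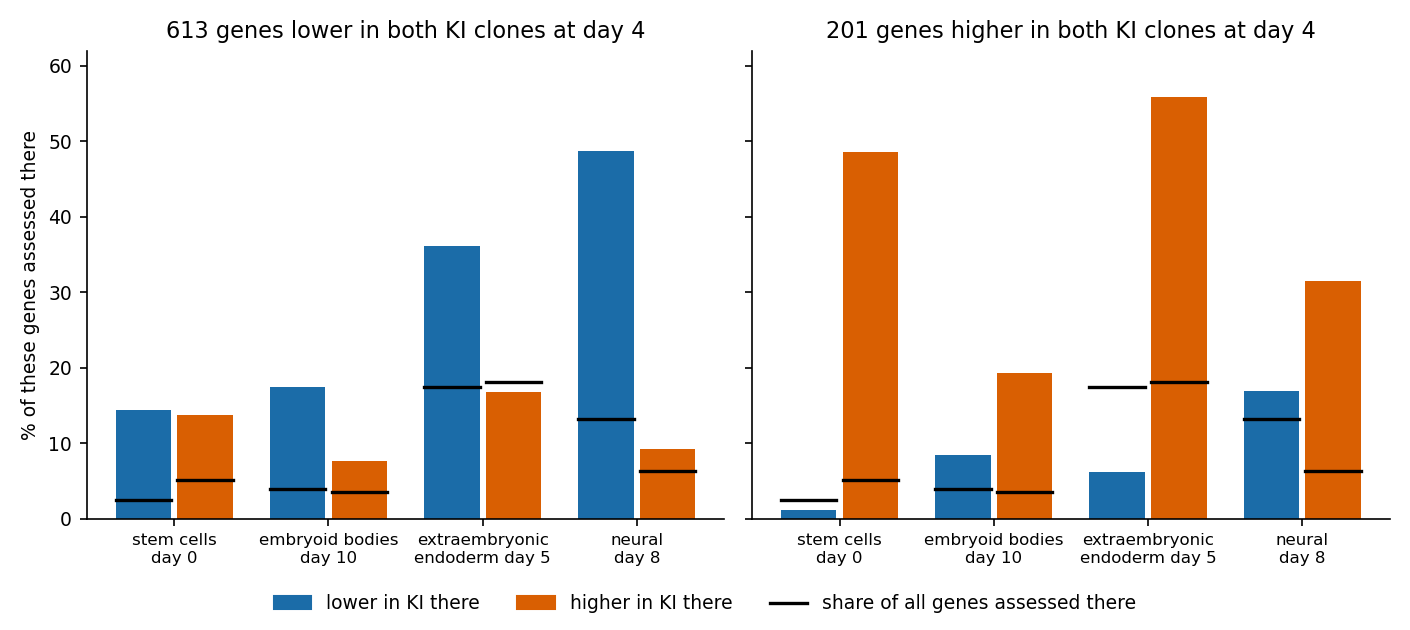
Bars give the percentage of the 613 lower (left) and 201 higher (right) genes of day 4 that were lower (blue) or higher (orange) in KI in 4 other sets of libraries, among those assessed there, and black lines the percentage of all genes assessed there. The 2-fold rule was used at days 0 and 10 and edgeR in the other cultures. The KI libraries of all 4 sets are of the same clones. The bars of the same direction lie above their black lines in all 4 sets, and so do 5 of the 8 bars of the opposite direction: those of the lower genes at day 0, at day 10 and in neural cultures, and those of the higher genes at day 10 and in neural cultures.

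No p-value belongs to the day 4 comparison itself, since flox has 1 library. A fit over the 9 libraries of days 0, 4 and 10 takes its spread from the 3 pairs of KI clones and assumes that flox varies like them. In that edgeR fit 460 of the 613 lower and 139 of the 201 higher genes had an adjusted p under 0.05 at day 4. These are the libraries that chose the genes, so the calls are no independent support.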

How the data were processed

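Members and gene lists were chosen with earlier results of these data known. Per the file headers, each of the 37 deposited RNA tables gives a read count and an RPKM value for 29082 transcripts. The submitters' processing notes name bcl2fastq, Bowtie2, STAR, SICER 1.1 and the build mm9, with no role. The counter and the use of strand are not given in the sources used here, so reads of genes overlapping on opposite strands cannot be told apart. Transcript accessions were matched to symbols in a RefSeq gene table (28436 matched; the 646 others held 1.28% to 1.31% of day 4 reads). The transcript with most reads over all 37 libraries stood for its gene, which kept 72.4% to 72.9% of the day 4 reads of a table. Counts were scaled to CPM. Ratios used a pseudocount of 0.5 CPM, a 1 CPM filter and a 2-fold rule in both clones. Tests in other cultures used edgeR 4.0.16 (TMM, filterByExpr, quasi-likelihood, Benjamini-Hochberg), after a check on simulated data, with R 4.3.3, and DESeq2 1.42.0 as an alternative. The spread of these tests was also taken from trophectoderm libraries for extraembryonic endoderm, and from neural libraries of a later day for neural cultures. Standard errors are the log2 fold change divided by the root of F. Nothing beyond titles separates replicates, so p-values measure the spread between these libraries only.

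Named genes were Kmt2c, Kmt2d, the 12 highest and 12 lowest changed genes with at least 5 CPM in the higher group, and in each list the first 2 members and up to 4 changed members. Some of these are not reported here. Others were named after their values were seen, to show the range of a list. The deposited RPKM values were used only to compare levels between genes. The 14 alternatives cover scaling, pseudocount, filter, transcript choice, fold, single clones and tests.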

Additional observations from a re-analysis of the deposited data

Results flagged for a closer look

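Some genes that were higher or lower in both clones at day 4 had both clones on the other side of flox, also by at least 2-fold, on another day. Flox has 1 library a day, so the difference between days was not tested, and values are mean log2 ratios of the 2 clones.

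Against day 10, some genes of endoderm and its matrix were lower at day 4 and higher at day 10. Foxa2 was at -1.43 and then 2.20, Pga5 at -2.21 and 3.37 and Spink1 at -2.60 and 1.88. Cited1 was at -2.29 at day 4 and at 3.88 at day 10, and it was also higher at day 0, at 1.32. The basement membrane genes Lama1 (-3.15 and 1.65), Col4a1 (-1.43 and 1.55) and Col4a2 (-1.36 and 1.49) did the same, as did Cyp26a1 (-1.87 and 1.43), Dll1 (-2.16 and 1.56) and Phlda2 (-1.28 and 1.45). The neural genes Sox1 (1.42 and -1.80) and En2 (1.07 and -1.61) were higher at day 4 and lower at day 10. Both passed the 1 CPM filter at day 10 only through flox, and Pga5 at day 4 likewise, so these could only be lower there.

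Against day 0, Fgfbp1 (-3.30 at day 4 and 2.05 at day 0), Krt19 (-1.33 and 1.94), Lfng (-1.40 and 1.83) and Myl4 (-2.09 and 1.70) were lower at day 4 and higher in stem cells. Krt19 and Lfng passed the filter in stem cells only through the clones, and so did Tcl1 at day 4, which fixes that direction. Tcl1 was the reverse, at 1.22 at day 4 and -1.505 at day 0.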

How the results depend on the processing

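Of 98 named genes that were higher or lower at day 4, 96 still met the rule with TMM scaling, 95 with DESeq2 size factors, 88 with a pseudocount of 1 CPM, 85 with a 5 CPM filter and 62 at 3-fold. The edgeR fit of 9 libraries called 87, leaving out Asb4, Cdh5, Esrrb, Fgf15, Hey2, Plat, Rspo3, Sox1, Stra6, Taf7l and Xlr4a. The total of 814 genes became 1947 at 1.5-fold (572 higher, 1375 lower, 164 list members) and 286 at 3-fold (60, 226 and 51), against 101 list members in the report. It was 1265 with edgeR (436 higher) and 1374 with DESeq2 (569 higher), counted over genes past the 1 CPM filter, a choice made after the counts over all tested genes were seen (440 higher and 836 lower, and 569 and 809). A 5 CPM filter left 119 higher genes and 11 of the 23 genes that set the clones apart. With 1 clone alone, 976 to 1087 genes met the rule. At day 0, 978 genes became 607 with the 5 CPM filter, 2138 at 1.5-fold, 380 at 3-fold, 1918 with edgeR and 1862 with DESeq2. At day 10, 1080 became 715, 2122 and 446 with these settings and 1681 with edgeR, and 1575 (without clone 27) to 1819 (without clone 48) with 1 clone alone. These alternatives at days 0 and 10 were chosen after seeing the data. Leaving out 1 library gave 3641 to 4967 called genes in extraembryonic endoderm against 5520, and 1896 to 2362 in neural cultures against 3202. The cause was not tested. No paired analysis was possible because flox and KI libraries share no replicate number. The single flox library limits every ratio at day 4, and 1 read is 0.0511 CPM there.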

Other observations

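The interferon response list is given here for stem cells, embryoid bodies, and the extraembryonic endoderm and neural cultures tested above. At day 4 only 4 of the 9 genes of the list were measured and none reached 2-fold in both clones (median log2 ratio -0.38), with Isg15 at 6.28 CPM in flox and 3.97 and 4.25 CPM in clones 27 and 48. At day 10, 7 of 9 measured genes were higher in both clones, against 3.52% of all genes, and 2 of the 7 (Irf7 and Oasl1) passed the filter only through the clones. There Isg15 was at 3.96, 29.2 and 44.0 CPM and Ifit1 at 1.86, 18.6 and 40.6 CPM. In extraembryonic endoderm cultures 7 of 9 tested genes were higher in KI (edgeR adjusted p under 0.05), against 18.1% of all genes, and in neural cultures none of 8 was higher and 1 was lower, against 6.3% and 13.2% of all genes, with a median log2 fold change of 0.18. At day 0, 2 of 4 measured genes were higher, against 5.12% of all genes. Whether this differs between stages was not tested.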
